A study of Mus musculus with 9 samples.

Results

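The mouse potassium channel genes on the array were followed through glioma tissue, glioma cells, astrocytes and neural stem cells. Members were all genes whose array name is Kcn, 1 or more letters and a number, which took 92 genes with 137 probes out of 34734 genes with 55666 probes. They fall into 30 voltage-gated (Kv) pore-forming genes, 10 Kv modifying genes, 11 Kv auxiliary genes, 15 inward rectifiers, 14 two-pore channels and 12 genes of channels gated by calcium or sodium, the class being read from the letters of the name.

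A potassium channel lets potassium run down its gradient and so sets how negative a cell is and how quickly an excited cell recovers. Kv channels open when the membrane depolarises, inward rectifiers and two-pore channels hold the resting potential, and calcium-activated channels couple calcium entry to potassium exit. Astrocytes are known for taking up potassium released by neurons through the inward rectifier Kir4.1, and glioma cells for large-conductance calcium-activated (BK) channels.

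RNA was measured on 9 single-colour Agilent mouse arrays, 1 sample each, with 200 ng of RNA labelled with Cy3. Glioma cells, on 2 arrays, came from brain tumours of Mosaic Analysis with Double Markers (MADM) mice. Astrocytes and neural stem cells, on 2 arrays each, came from normal wild-type C57BL/6J brain. The other group was 3 arrays of glioma tissue from MADM mice with EZH2, a histone methyltransferase, knocked out. MADM is a mouse system in which recombination between chromosomes makes rare, colour-marked mutant cells. The driver of recombination, the tumour-causing alleles of the glioma cells and the ages are not given in the sources used here. Whether arrays of a group stand for separate animals or cultures is not stated. The p-values therefore reflect the spread among these samples alone. Tissue arrays and astrocyte arrays differ within their group in sex-linked genes, and glioma cell arrays and neural stem cell arrays in marker lists (next paragraph). How much of the spread is technical was not tested.

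On each array 60.1% to 65.7% of spots were well above background. Ezh2 itself, read by 1 probe, stood at 1.91, 1.62 and 1.48 in the tissue labelled EZH2 knockout, 3.03 and 3.24 in glioma cells, 0.19 and -0.58 in astrocytes and 2.14 and 3.38 in neural stem cells. The deleted part of the gene is not given in the sources used here, so this probe does not check the knockout. Xist was not well above background on tissue arrays 2 and 3 but was on tissue array 1 (0.40 by the brightest probe), while Ddx3y, a Y-linked gene, stood at -7.27, 0.29 and -1.57 on tissue arrays 1, 2 and 3. Ddx3y was also split between the astrocyte arrays (-5.76 and 1.35). It was not well above background in glioma cells (-7.30 and -7.09) and stood at 0.24 and 0.27 in neural stem cells, so these groups differ in a Y-linked gene in their direct comparison, and the part of sex in it was not tested. Marker lists further separated the groups, as drawn in the plot of marker lists. Microglia markers averaged 3.34 and 3.73 on the astrocyte arrays and 3.39 to 4.38 in tissue, against -3.74 and -3.19 in glioma cells. Fibroblast markers averaged 0.30 on astrocyte array 1 and 5.08 on astrocyte array 2. Oligodendrocyte precursor markers were high in glioma cells (5.14 and 4.73), neural stem cells (4.23 and 3.01) and tissue (4.46 to 5.21), against -0.77 and -1.30 in astrocytes. Astrocyte markers averaged -0.38 and -0.72 in glioma cells and 2.90 and 0.23 in neural stem cells. They averaged 4.20 and 3.14 in astrocytes and 2.29 to 3.45 in tissue. Neural stem cell markers averaged 0.38 on glioma cell array 1 and 2.69 on glioma cell array 2, against 4.07 and 3.88 in neural stem cells.

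**Figure D1:**
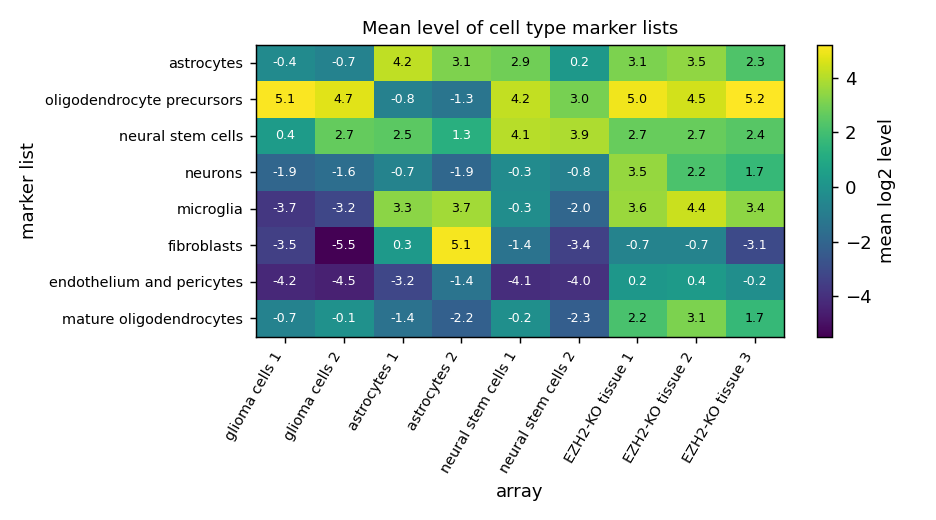
Mean log2 level of 8 marker lists (rows) on each of the 9 arrays (columns), where 0 is the array's 75th percentile. Microglia markers are high in astrocytes and tissue and low in glioma cells, and neuron, endothelial and mature oligodendrocyte markers are highest in tissue.

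A level here is log2 of the spot intensity minus that array's 75th percentile, so 0 is the 75th percentile and levels of different probes are not comparable. Where a gene has several probes, the brightest that passed the filter was used. Of the 92 members, 45 were well above background on every array of all 4 groups and 19 on every array of no group, among them Kcnj1, Kcnj2, Kcnj6, Kcnj8, Kcnn1, Kcnmb2 and Kcnmb3. Detection on every array reached 49 members in glioma cells, 56 in astrocytes, 57 in neural stem cells and 67 in tissue. Between replicates the measured members differed by a median of 0.60 in glioma cells, 0.78 in astrocytes, 0.59 in neural stem cells and 1.46 across the 3 tissue arrays. The samples are bulk, so fewer cells of a type and less RNA per cell cannot be told apart.

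**Figure D2:**
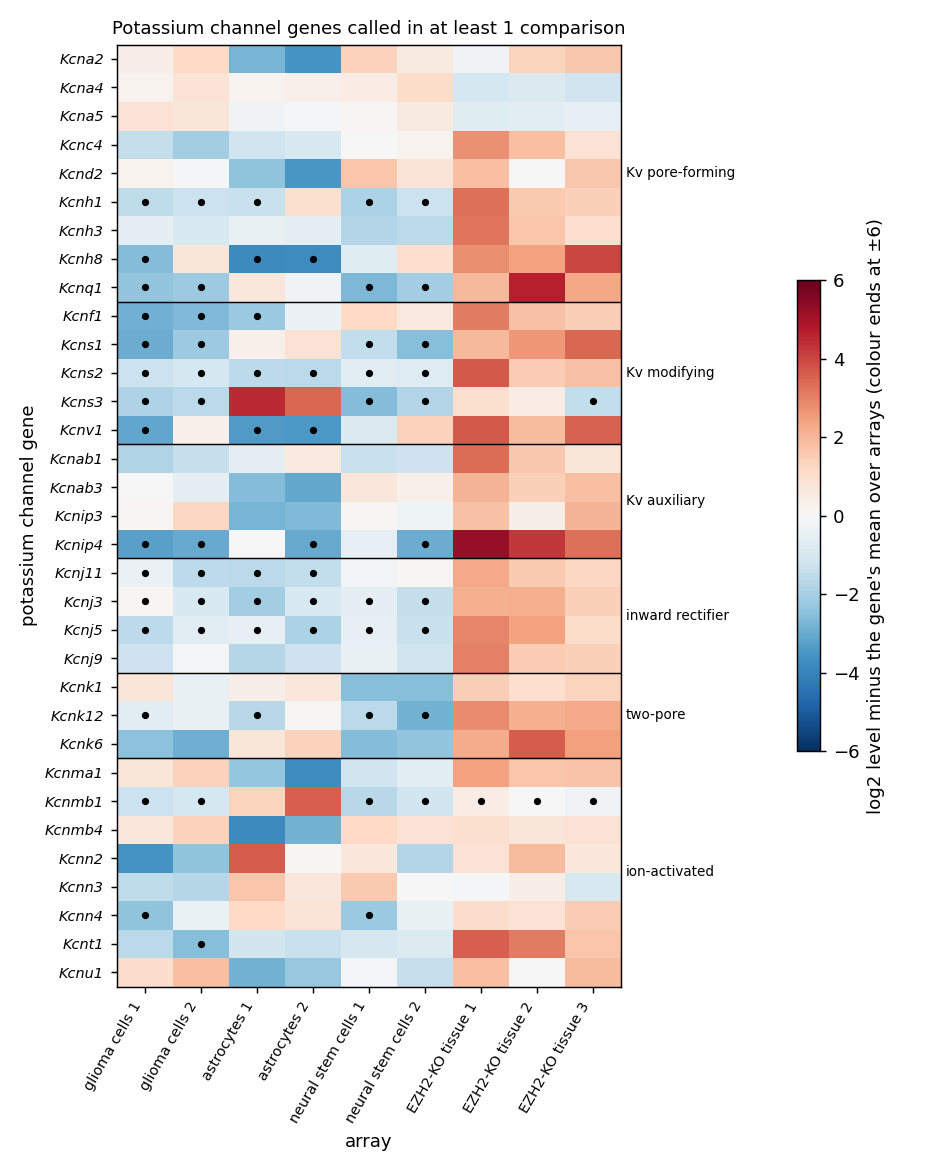
Log2 level of 33 members called in at least 1 comparison (rows, grouped by class) minus the gene's mean over the 9 arrays (columns). Red is above the mean, blue below, and a black dot marks an array where the probe was not well above background. Kcnmb4 and Kcna2 are low on the 2 astrocyte arrays, Kcns3 is high there, and most rows are high in tissue.

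Because BK channel beta subunits moved in opposite directions between glioma cells and astrocytes (below), the sequences upstream of their starts are shown with those of Kcnd2, which was higher in glioma cells, and Kcns3, which was lower. These are the 250 bases before the RefSeq start in GRCm38.p6, 5′ to 3′ on the gene's strand, with each CG dinucleotide, the site of DNA methylation, in capitals. Kcnmb4 lies at chr10:116473524-116473773 (minus strand), Kcnd2 at chr6:21215096-21215345 (plus), Kcnmb1 at chr11:33962763-33963012 (plus) and Kcns3 at chr12:11150843-11151092 (minus).
Kcnmb4: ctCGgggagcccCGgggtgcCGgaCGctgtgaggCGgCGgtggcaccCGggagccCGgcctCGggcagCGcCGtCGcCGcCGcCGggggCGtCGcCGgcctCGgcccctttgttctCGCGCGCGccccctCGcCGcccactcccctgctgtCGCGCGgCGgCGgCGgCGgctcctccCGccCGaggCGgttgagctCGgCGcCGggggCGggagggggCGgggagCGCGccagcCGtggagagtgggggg
Kcnd2: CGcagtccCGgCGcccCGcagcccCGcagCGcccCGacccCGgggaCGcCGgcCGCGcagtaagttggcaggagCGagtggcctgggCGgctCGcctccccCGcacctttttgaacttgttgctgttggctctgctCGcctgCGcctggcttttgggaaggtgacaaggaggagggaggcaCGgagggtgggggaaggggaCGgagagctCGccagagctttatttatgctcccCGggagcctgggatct
Kcnmb1: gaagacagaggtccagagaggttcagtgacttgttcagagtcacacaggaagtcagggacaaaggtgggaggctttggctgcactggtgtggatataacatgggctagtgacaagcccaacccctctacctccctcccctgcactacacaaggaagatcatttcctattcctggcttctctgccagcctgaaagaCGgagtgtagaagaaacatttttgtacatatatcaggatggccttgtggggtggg
Kcns3: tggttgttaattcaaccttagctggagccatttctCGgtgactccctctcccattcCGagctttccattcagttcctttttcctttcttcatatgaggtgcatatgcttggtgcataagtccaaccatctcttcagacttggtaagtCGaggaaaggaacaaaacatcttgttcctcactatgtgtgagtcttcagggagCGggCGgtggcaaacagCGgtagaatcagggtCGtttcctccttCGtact
The Kcnmb4 window holds 43 CG dinucleotides and the Kcnd2 window 22, against 1 for Kcnmb1 and 8 for Kcns3. The median over 27025 genes was 6 and over the 67 members found in the RefSeq table was 8. Among the 5 of 8 members higher in glioma cells with a window the median was 22 (4 to 43), and among the 4 of 6 lower with one it was 9 (1 to 17). The windows not shown held 31 (Kcnma1), 18 (Kcna2) and 4 (Kcnip3) among the higher, and 17 (Kcns1) and 10 (Kcnn3) among the lower, so the 2 sets overlap. The E-box CAGCTG, a palindrome, occurs in 12.7% of all windows and in 15 of the 67 member windows (22.4%). Of the other motifs counted, the SOX-type ACAATG occurs in 10.9% of all windows and 7.46% of member windows. The ETS-type GAGGAA occurs in 23.1% of all windows and 28.4% of member windows. The median GC content was 52% over all windows and 58.8% over member windows, and its part in these shares was not tested.

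Glioma cells were first compared with astrocytes, the question being how channel genes of the tumour cells stand against a normal glial type. Higher in glioma cells were 8 members and lower 6, of 66 tested, which is 21.2% against 18.8% of all 24868 genes tested (9% higher and 9.84% lower). The other 26 members had no probe that cleared background on all arrays of any cell group. Of the called members, 4 of the 6 lower (Kcns3, Kcnmb1, Kcns1 and Kcnq1) and 1 of the 8 higher were well above background on no array of the dimmer group. They passed the filter through a group where they are high, so their p-values are given as a description. The higher members were Kv, Kv auxiliary and BK genes, and the lower ones Kv modifying, two-pore and calcium-activated genes with Kcnq1. The median difference of the tested members was -0.02 against 0.15 over all genes. Array values of both groups were fully apart for 50 members (75.8%) against 69.2% of all genes. The share called is near that of all genes, so the members are described one by one.

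Among BK channel genes, Kcnmb4, the neuronal beta 4 subunit that slows BK gating, was at 4.06 and 4.78 in glioma cells and -0.45 and 0.55 in astrocytes, with 4.57 and 4.28 in neural stem cells and 4.35, 4.13 and 4.25 in tissue. The astrocyte arrays lie far below the other 7. The difference of glioma cells from astrocytes was 4.37 on the log2 scale (SE 0.46, adjusted p = 0.00581), and a second probe gave 3.79. Its main probe is at chr10:115854977-115855036 (mm9, minus strand). Kcnma1, the BK pore, was at -0.09 and 0.58 in glioma cells and -3.13 and -4.54 in astrocytes. The groups did not overlap, and the difference was 4.08 (SE 0.57, adjusted p = 0.0111), with 3.40 by a second probe. Its other probe was not well above background in astrocytes and gives no measured size. Kcnmb1, the beta 1 subunit known from smooth muscle, went the other way: it was at -4.73 and -2.48 in astrocytes and was not well above background on any glioma cell array. It was at least 3.33-fold lower in glioma cells (adjusted p = 0.0317), a call lost without either glioma cell array and with normexp background correction (adjusted p = 0.197). For a probe not well above background, the bound takes the array's lowest signal of any probe that is, or the probe's own level where higher. The adjusted p belongs to the fit of the values as they are. Bounds hold for the main processing only: with normexp the log2 difference of Kcnmb1 was -0.86, smaller than its bound. With dim values raised to that lowest signal before the fit, an alternative chosen after the data were seen, Kcnmb1 did not pass (adjusted p = 0.151). The higher astrocyte value was on array 2, where fibroblast markers averaged 5.08 against 0.30 on array 1, and their part in the result was not tested. Kcnu1, a sperm-associated relative of the BK pore, was 3.98 higher (SE 0.56, adjusted p = 0.0116). The calcium-activated Kcnn3, a small-conductance channel, was at -4.24 and -4.39 in glioma cells and -1.01 and -2.01 in astrocytes, a difference of -2.80 (SE 0.63, adjusted p = 0.0380). That call was lost when any 1 of the 4 arrays compared was left out. Kcnn2, another small-conductance channel, was at -4.00 and -2.81 in glioma cells and 3.19 and -0.31 in astrocytes. Its difference of -4.85 did not pass (adjusted p = 0.0658), and with all 9 arrays in 1 fit it did (adjusted p = 0.0256).

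Among Kv genes, Kcna2, a delayed rectifier of axons, was 3.97 higher (SE 0.49, adjusted p = 0.00844), from -4.06 and -4.78 in astrocytes to -0.85 and -0.04. Kcnd2, the A-type channel Kv4.2, was at 2.00 and 1.66 in glioma cells and -0.62 and -1.70 in astrocytes, 2.99 higher (SE 0.51, adjusted p = 0.0187). Kcnip3, which encodes a calcium-binding partner of Kv4 channels, was at 5.22 and 6.35 against 2.31 and 2.46, 3.40 higher (SE 0.45, adjusted p = 0.00974). Averaging its probes gave 1.44 and ended that call (adjusted p = 0.188). Kcnab3, a Kv beta subunit, was 2.56 higher (SE 0.34, adjusted p = 0.0101). The call of Kcnd2 was lost without glioma cell array 1 or 2 or astrocyte array 2, those of Kcnip3 and Kcnu1 without astrocyte array 1, and that of Kcnab3 without astrocyte array 2.

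Kcns3, a silent subunit that forms channels only with Kv2 partners, was at 0.91 and -0.12 in astrocytes and not well above background on either glioma cell array. It was at least 50.2-fold lower (adjusted p = 0.00355). Kcns1, of the same family, was at least 3.20-fold lower (adjusted p = 0.0159) and Kcnq1, the pore of a cardiac and epithelial channel, at least 1.58-fold lower (adjusted p = 0.0177). The Kcns1 call was lost without glioma cell array 1 or either astrocyte array, and that of Kcnq1 without astrocyte array 1 or any glioma cell array. Both were lost with normexp background correction, where the log2 differences were -0.38 and -0.08, smaller than the bounds (adjusted p = 0.309 and 0.834). The Kcnq1 call was also lost with dim values raised (adjusted p = 0.277) and with all 9 arrays in 1 fit (adjusted p = 0.0644). Kcnk6, a two-pore channel, was measured on every array: -0.96 and -0.31 in astrocytes, -4.12 and -4.62 in glioma cells, a difference of -3.74 (SE 0.36, adjusted p = 0.00464). Its probe is at chr7:30007215-30007274 (mm9, minus strand). Microglia markers were higher in astrocytes in the same comparison, with 7 of 8 called, and their part in the lower calls was not tested.

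Members known from glia did not all move. Kcnj10, which encodes Kir4.1, was at 5.27 and 4.95 in glioma cells, 7.62 and 6.92 in astrocytes and 4.73 and 1.38 in neural stem cells. The difference of glioma cells from astrocytes was -2.16 (SE 1.08, adjusted p = 0.207) and did not pass, although the groups did not overlap. Its partner Kcnj16 gave -2.94 (SE 1.08, adjusted p = 0.113). None of the 8 inward rectifiers tested was called. Kcnk1 (difference -0.35, adjusted p = 0.607), Kcnd3 (-0.73, adjusted p = 0.540) and Kcnh2 (-0.06, adjusted p = 0.948) also did not pass. By the brightest probe some members were steady on all 9 arrays: Kcnh4 lay between -1.65 and -0.72 and Kcna7 between -0.76 and 0.15. A second Kcna7 probe, also well above background on all 9, was less steady, from -3.76 on a tissue array to -1.68 on a glioma cell array. Others split replicates. Kcna1 was at 1.19 and -2.09 on the glioma cell arrays, Kcnip1 at -0.23 and -4.10 and Kcna6 at 5.04 and 1.38 on the astrocyte arrays.

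**Figure D3:**
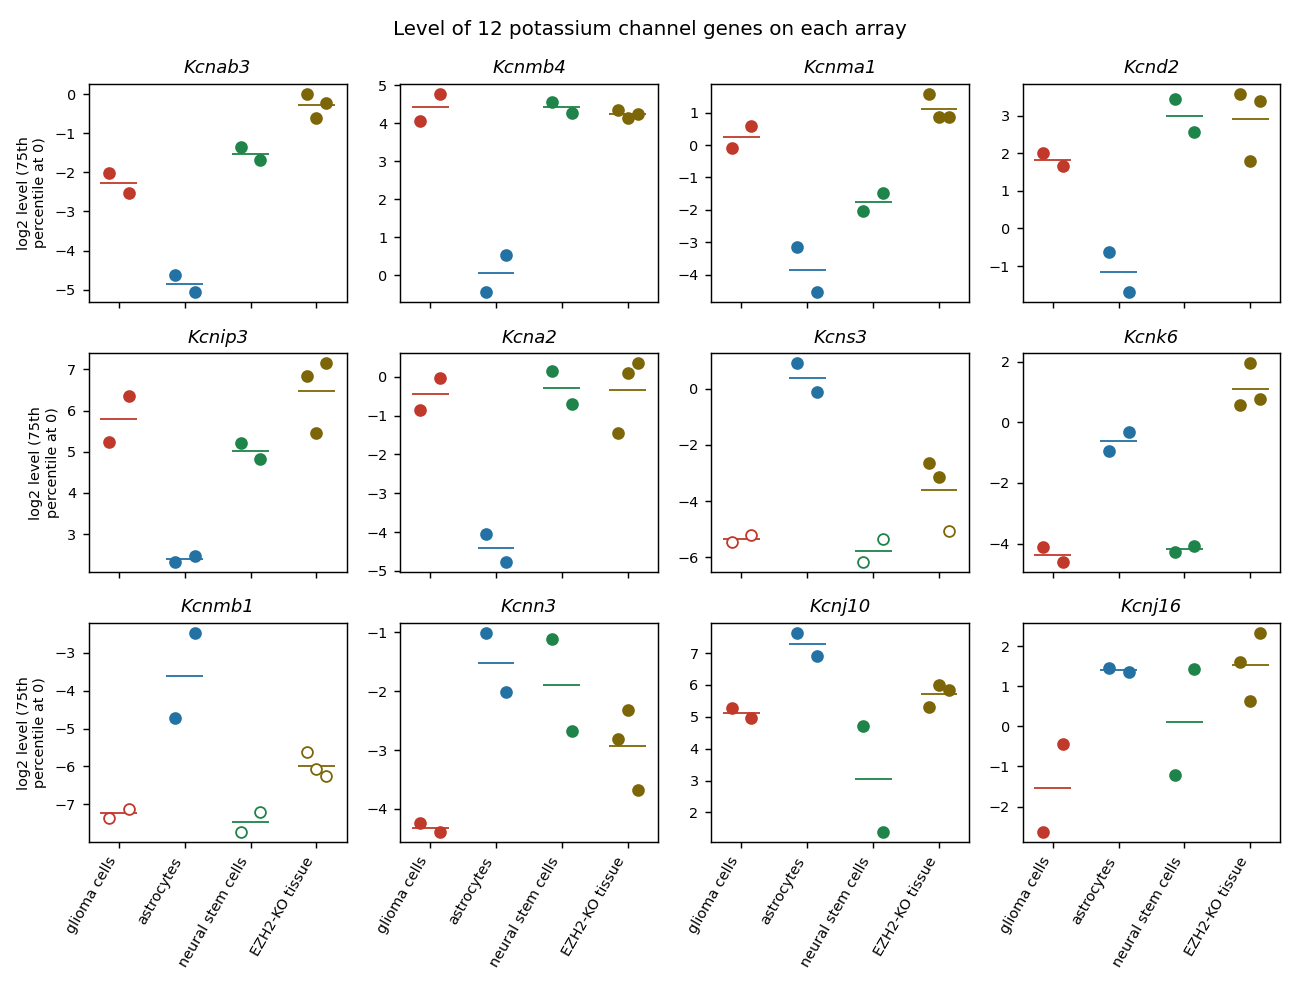
Log2 level (75th percentile at 0) of 12 potassium channel genes in 4 groups, with each point 1 array, open where the probe was not well above background, and lines at group means. Kcnab3, Kcnmb4, Kcnma1, Kcnd2, Kcnip3 and Kcna2 are low in astrocytes, and Kcns3, Kcnk6 and Kcnmb1 are high there against glioma cells.

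Neural stem cells were compared with the same astrocyte arrays. In stem cells 6 members were higher and 6 lower of 66 tested (18.2% against 14.6% of all genes, 6.74% higher and 7.85% lower), and the median was 0.09 against 0.21. Values were fully apart for 46 members (69.7%) against 66.3% of all genes. Kcnmb4 was 4.37 higher (SE 0.46, adjusted p = 0.00789), Kcnd2 4.15 (SE 0.51, adjusted p = 0.0105), Kcna2 4.14 (SE 0.49, adjusted p = 0.00991), Kcnab3 3.33 (SE 0.34, adjusted p = 0.00750) and Kcnip3 2.63 (SE 0.45, adjusted p = 0.0226). The Kcnip3 call was lost without any 1 array of the comparison and with its probes averaged (adjusted p = 0.159). Kcns3 was at least 52.2-fold lower (adjusted p = 0.00519), and Kcnk6 gave -3.54 (SE 0.36, adjusted p = 0.00738). Kcnmb1 was at least 3.27-fold lower (adjusted p = 0.0322), Kcns1 at least 3.15-fold (adjusted p = 0.0314) and Kcnq1 at least 1.56-fold (adjusted p = 0.0190). These 3 and Kcns3 were well above background on no stem cell array and passed the filter through other cells. With normexp background correction the calls of Kcnmb1, Kcns1 and Kcnq1 were lost (adjusted p = 0.254, 0.429 and 0.630). Their log2 differences there were -0.76, -0.29 and -0.18, again smaller than the bounds. With dim values raised Kcnmb1 and Kcnq1 did not pass (adjusted p = 0.163 and 0.302), nor did Kcnq1 with all 9 arrays in 1 fit (adjusted p = 0.0620). Leaving out an array also ended them: either stem cell array for Kcnmb1, either astrocyte array or stem cell array 2 for Kcns1, and astrocyte array 1 or either stem cell array for Kcnq1. Kcnk1, a weakly inward-rectifying two-pore channel of astrocytes, was at 1.02 and 1.34 in astrocytes and -1.85 on both stem cell arrays, a difference of -3.03 (SE 0.45, adjusted p = 0.0163). That call was lost without any 1 of the 4 arrays. Kcnj10 gave -4.22 (SE 1.08, adjusted p = 0.0592), and passed with all 9 arrays in 1 fit (adjusted p = 0.0200), as did Kcnma1 (difference 2.09, adjusted p = 0.0665 and 0.0313). In the same comparison 6 of 8 microglia markers were lower and 6 of 8 oligodendrocyte precursor markers higher in stem cells, and their part in the result was not tested. Since the astrocyte arrays serve in both comparisons, the values are given side by side only. The difference of the 2 cell types, tested directly, is next.

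Glioma cells against neural stem cells gave no called member of 66 tested, where 0.977% of all genes were called (0.659% higher and 0.318% lower). In limma 12 members were under an unadjusted p of 0.05, 8 higher and 4 lower. The lowest adjusted p was 0.0784, for Kcnk1, at 1.41 and 0.25 in glioma cells against -1.85 on both stem cell arrays (difference 2.68, SE 0.45). With all 9 arrays in 1 fit it was called (adjusted p = 0.0271). Kcnh5, an ether-a-go-go channel, was at -0.43 and -1.06 in glioma cells and -4.81 and -4.43 in stem cells, 3.87 higher (SE 0.85, adjusted p = 0.128). Kcnc1, a fast Kv3 channel, was at -1.63 and -0.46 against 1.14 and 3.34, a difference of -3.29 (SE 0.85, adjusted p = 0.171). In both genes the arrays are apart, yet neither passed. Kcnmb4 differed by less than its spread (adjusted p = 0.999), and Kcnma1 gave 1.99 (SE 0.57, adjusted p = 0.204). Values were fully apart for 35 members (53.0%) against 46% of all genes. With 2 arrays a group and 3 residual degrees of freedom, a p that misses the threshold does not show that the levels are equal.

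Glioma tissue labelled EZH2 knockout was compared with glioma cells, which share the MADM background but differ also in being cells and in genotype. Here 21 members were higher and 2 lower of 73 tested, 28.8% and 2.74% against 7.82% and 9.11% of all 25399 genes (31.5% against 16.9% in either direction). Without the array scaling the split was 30 and 0. Values were fully apart for 50 members (68.5%) against 55.2% of all genes. The median was 1.39 against -0.16, and 58 of the 73 had the higher mean in tissue. The filter matters: 20 of the 73 were measured on every tissue array but not on every glioma cell array. A member that passed only through the tissue arrays was let in by its signal there, which tilts the counts towards higher calls. The counts, and the p-values of members that passed in that way, are therefore given as a description. Of the 21, 9 were well above background on no glioma cell array and 7 on every array of both groups. Knockout, tissue against cells, slide and software version cannot be told apart here, since all tissue arrays were on 1 slide and all cell arrays on another.

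Of the members measured on every array, Kcnk6 stood at 0.56, 1.94 and 0.77 in tissue and -4.12 and -4.62 in glioma cells, 5.46 higher (SE 0.45, adjusted p = 0.000677). The groups are wholly apart. Kcnc4, a fast Kv3 channel, was 3.56 higher (SE 0.52, adjusted p = 0.00472), Kcnab1, a Kv beta subunit, 3.47 (SE 0.72, adjusted p = 0.0181) and Kcnh3, an ether-a-go-go relative, 2.69 (SE 0.58, adjusted p = 0.0210). Kcnn2, a small-conductance channel, was 4.11 higher (SE 1.1, adjusted p = 0.0416), a call lost without any 1 of the 5 arrays. The sodium-activated channel Kcnt1 was 4.86 higher (SE 0.56, adjusted p = 0.00205), though only 1 glioma cell array was well above background.

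Members not well above background on any glioma cell array are given as bounds, and any p-value with them is a description. Kcnip4, a Kv4 partner of neurons, was at 1.13, 0.14 and -0.80 in tissue and at least 45.0-fold higher (adjusted p = 0.00431). Kcns1 was at least 13.5-fold, Kcnq1 10.5-fold and Kcnf1 7.87-fold higher, the last a call lost without tissue array 1, when another probe represented it. Among inward rectifiers, Kcnj11, the pore of ATP-sensitive channels, was at least 4.69-fold, and the G-protein-gated Kcnj3 and Kcnj5 were 3.89-fold and 3.39-fold higher. Kcns2 and Kcnh1 had bounds of 3.43-fold and 2.89-fold. Kcnab3 was 2.02 and Kcnj9 2.65 higher, both measured on every array. Kcnn4, Kcnk12, Kcnh8 and Kcnv1 were well above background on only 1 of the 2 glioma cell arrays, so their differences of 2.56, 2.97, 4.01 and 4.46 are not measured sizes. With dim values raised Kcnh8 came to 3.46 and Kcnv1 to 3.45, both still called. Without glioma cell array 1 the calls of Kcnab1, Kcnh1, Kcnh3, Kcnh8, Kcnj5, Kcnj9, Kcnk12, Kcnn2, Kcnn4, Kcns2, Kcnv1 and Kcna5 were lost. That left 10 of the 21 higher members called and added Kcnk1 (1.70, adjusted p = 0.0376, against 1.12 and 0.0777 with all arrays), 11 in all. Without glioma cell array 2 those of Kcnab1, Kcnh1, Kcnh3, Kcnj3, Kcnk12, Kcnn2 and Kcna4 were lost. Without tissue array 1, 2 or 3 the calls of Kcnh8, Kcnn2 and Kcnn4 were lost, with Kcnv1 without 1 or 3 and Kcnj3 without 1 or 2. With normexp background correction 16 members were called higher. Kcnq1, Kcnn2 and Kcnn4 were among those no longer called (adjusted p = 0.0929, 0.0674 and 0.0838). The log2 difference of Kcnq1 was then 1.61, smaller than its bound. Lower in tissue were Kcna4 (difference -1.57, SE 0.31, adjusted p = 0.0146) and Kcna5 (-1.43, SE 0.25, adjusted p = 0.00944). For Kcna5 the other probe, not well above background in glioma cells but so on every tissue array, went the other way. In the unscaled table neither Kcna4 nor Kcna5 passed (adjusted p = 0.0656 and 0.142).

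**Figure D4:**
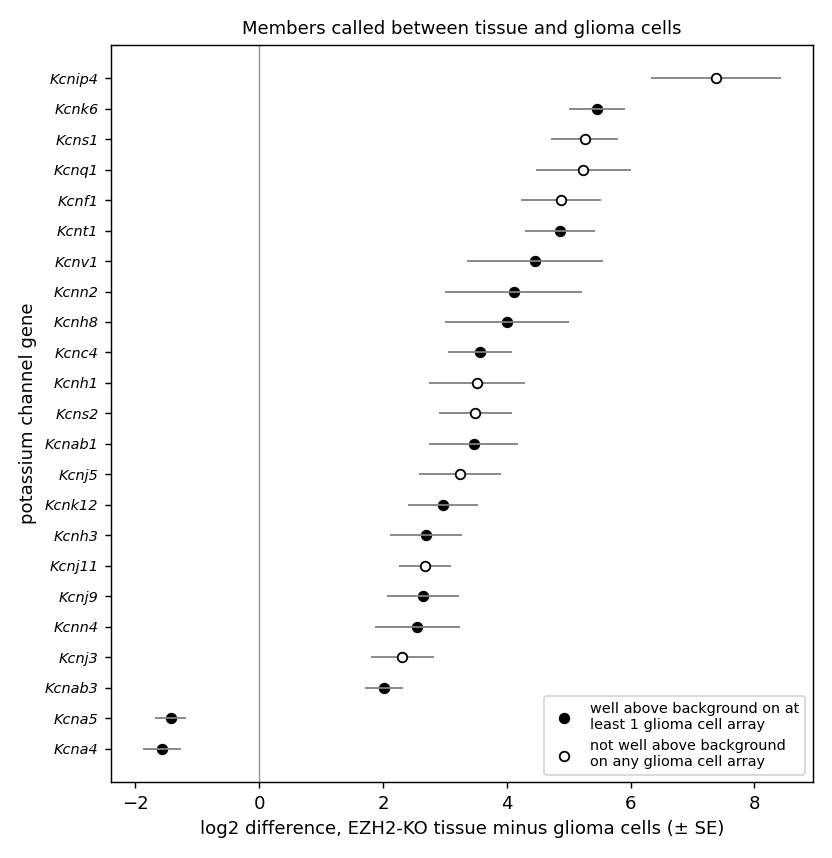
Log2 difference of EZH2-KO tissue minus glioma cells for the 23 called members, with bars of 1 SE. Open points were not well above background on any glioma cell array, so their difference is not a measured size. Only Kcna4 and Kcna5 are below 0.

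Marker lists moved with the tissue comparison. Neuron markers averaged 3.54, 2.20 and 1.68 on tissue arrays 1, 2 and 3 against -1.95 and -1.63 in glioma cells, with 4 of 8 called higher, and 8 of 8 well above background on each tissue array. Of the 21 members higher in tissue, 14 were highest on tissue array 1 and 12 lowest on tissue array 3. Among all 73 members tested, 42 were highest on tissue array 1. Microglia (7 of 8 called), astrocyte (6 of 10), endothelial (4 of 8) and mature oligodendrocyte (2 of 7) markers were higher in tissue too. Their part in the result was not tested. Kcnj10 (0.60, adjusted p = 0.654), Kcnmb4 (-0.18, adjusted p = 0.763) and Kcnma1 (0.86, adjusted p = 0.245) did not pass.

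Other genes of potassium handling were read from a list of 29: the sodium-potassium pump, cation-chloride cotransporters, sulfonylurea receptors, channel partners, HCN channels and endfoot proteins. Against astrocytes, 4 of 23 tested were higher and 4 lower in glioma cells, with a median of -0.23, where 9% and 9.84% of all genes were called and their median was 0.15. The pump subunit Atp1b1 was at 1.26 and 0.38 in glioma cells and 5.58 and 4.59 in astrocytes, a difference of -4.27 (SE 0.52). The water channel Aqp4, which lies beside Kir4.1 at endfeet, gave -8.31 (SE 1.38). Neural stem cells against astrocytes gave 2 higher and 2 lower (6.74% and 7.85% of all genes), and glioma cells against neural stem cells gave 0 in limma. In tissue against glioma cells 8 of 25 were higher and 0 lower in limma, against 7.82% and 9.11% of all genes, with a median of 0.62 against -0.16. Among them was Slc12a5, the neuronal chloride exporter, at 4.47, 3.39 and 2.82 against 0.23 and -0.04. Abcc9 and Lrrc55, also among them, passed the filter only through the tissue arrays, so the tissue counts of this list are a description.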

How the data were processed

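Single-colour Agilent mouse arrays of 9 samples were used. The deposited intensity of each spot is on a linear scale, and per the file headers it was background-subtracted and detrended by Agilent Feature Extraction, 10.7.1.1 for cell arrays and 10.7.3.1 for tissue arrays (the submitters' processing notes name 10.7.3.1). The authors' deposited log2 value table held the same signals unscaled (99.2% to 100% of values within 0.01) and served as an alternative.

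Control and outlier spots were left out, spots of a probe averaged, and log2 intensity scaled by subtracting each array's 75th percentile. limma 3.58.1 in R 4.3.3 was fitted to all genes passing the filter, with Benjamini-Hochberg adjustment; called means adjusted p under 0.05 and at least 2-fold. Cell comparisons used the 6 cell arrays (3 residual degrees of freedom), the tissue comparison all 9 (5). The fit was tested on simulated data in which 100 genes changed by 2 and 100 by 4 on the log2 scale, the others staying unchanged. Of those changed by 2 it called 1 (glioma cells against astrocytes), 0 (glioma against stem cells), 5 (stem cells against astrocytes) and 51 (tissue). Of those changed by 4 it called 59, 58, 67 and 86. Changes of 2 between cell groups were thus mostly missed in the simulation. The changed genes were drawn from genes with 1 probe, well above background on all 9 arrays. They were a far smaller share than the 18.8% and 14.6% of genes called in the comparisons with astrocytes. The adjustment was therefore stricter in the simulation, and its recovery does not give the recovery in these data. Names came from accessions for 27232 probes, symbols for 3579, synonyms for 565 and the array for 24290. Precision is limited by 2 or 3 arrays a group. For each comparison the text names the largest called changes in each direction, the largest bounds, and textbook channels of glia, glioma or neurons whatever their values. The members and lists were chosen with earlier results of these data known. No saturated spots were seen (0). Shares of all genes called are given to 3 significant digits with trailing zeros dropped, and the SE of Kcnn2 in the tissue comparison likewise. Some genes that enter the counts are not reported here by name.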

Additional observations from a re-analysis of the deposited data

How the results depend on the processing

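Of 6 members lower in glioma cells than astrocytes, 2 were called with normexp background correction and 2 with a filter of every array well above background; without 1 array the count ran from 2 to 7. Neural stem cells against astrocytes gave 6 lower in the main fit and 3 with that filter. The count was 4 with normexp, 7 with median scaling and 2 to 5 without 1 array. Glioma cells against neural stem cells gave 1 higher with all 9 arrays in 1 fit. For tissue the higher count was 21 in the main fit, 8 with that filter, 16 with normexp and 30 in the unscaled table. It ran from 11 to 21 without 1 array, the lowest without glioma array 1. The lower count was 0 in the unscaled table, 1 with the mean of probes and 1 to 2 without 1 array. Kcna5 reversed to 1.25 with the mean of its probes. Without scaling the median of all genes moved by -0.44, -0.41 and 0.54 (glioma and stem cells against astrocytes, tissue) and the share of calls that were higher went from 47.8% to 30.0%, 46.2% to 24.1% and 46.2% to 79.6%; median scaling moved the tissue median by -0.17, with 35.1% higher. Same-numbered arrays did not deviate together (correlations -0.16 to 0.12). That cannot exclude a shared preparation, and the labels state no pairing, so the replicate block served as an alternative only. With it, glioma cells gave 9 higher and 6 lower against astrocytes and 0 and 0 against neural stem cells. Neural stem cells against astrocytes gave 7 and 7, and tissue against glioma cells 14 and 2. All-gene calls between glioma and stem cells fell from 164 higher and 79 lower to 30 and 19 with the block. The slide as a block could not be fitted and was not run, since each group lies on 1 slide. Tissue files give no mean signal, so normexp used the median signal.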

Other observations

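The members Kcne2, Kcne3, Kcnj13 and Kcnq1, were picked after their values were seen because tissue array 2 stood highest of the tissue arrays. Kcne2, a beta subunit of KCNQ channels, was at -5.61, -1.65 and -6.65 on tissue arrays 1, 2 and 3, and was well above background on array 2 alone. Kcne3 was at -7.17, -2.31 and -6.50, Kcnj13, the inward rectifier Kir7.1, at -3.74, -0.86 and -2.10, and Kcnq1 at -2.98, -0.25 and -2.61. A list of 7 choroid plexus genes, also chosen after seeing the data, was highest on tissue array 2 for 7 of 7, with Ttr at -2.84, 5.89 and -5.51. Whether tissue array 2 held choroid plexus was not tested.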
